A study of Mus musculus with 8 samples.

Results

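Acetylated regions near gene ends are stretches of chromatin, called as enriched for acetylated histone H4, that lie within 1 kb of where a protein-coding gene starts or ends. They were chosen by merging the overlapping peaks of 8 libraries on chromosomes 1 to 19 and keeping each merged region that touched such a window and held peaks of at least 2 libraries. This gave 13211 members out of 81378 merged regions, or 20.9% of the 63103 merged regions with peaks of 2 or more libraries. The start and end of a gene are the outer coordinates of its RefSeq entry on GRCm38.p6, so an inner promoter can lie elsewhere. The cells were bone-marrow-derived macrophages of C57BL/6 mice, profiled by chromatin immunoprecipitation and sequencing with an antibody to acetyl-H4. The 4 groups were untreated cells, cells given PAM3, cells given 25HC, and cells given 25HC as the treatment and PAM3 as the stimulus, called 25HC then PAM3 here. Every group held 1 library of mouse A and 1 of mouse B. The label for stimulation time, which carries no unit, reads 18 in all 4 libraries with PAM3 and 0 in the other 4, so PAM3 and that time cannot be told apart. The sources used here give neither age nor sex of the mice, and p-values measure the spread between libraries of only 2 mice.

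Acetylation of the tails of histone H4 loosens the contact between nucleosomes and DNA and is placed by acetyltransferases that transcription factors bring to promoters and enhancers. At a transcribed gene the mark is usually concentrated around the transcription start, over promoters that are often rich in CpG dinucleotides, and is weaker at the transcript end. PAM3 (PAM3CSK4) is a synthetic bacterial lipopeptide sensed by the Toll-like receptor pair of TLR2 and TLR1, which switches on NF-κB and inflammatory genes in macrophages. 25HC (25-hydroxycholesterol) is an oxysterol that activated macrophages make, known to activate LXR receptors and to hold back cholesterol synthesis.

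Promoter sequences lying in members are shown for 3 genes whose acetylated start region lengthened or appeared with PAM3 (Lcn2, Marco and Sod2) and 3 whose region shrank or disappeared (Siglech, Sstr2 and Cdk1). They are taken from RefSeq on GRCm38.p6 and run from 250 bases before to 50 bases after the annotated start. Capitals mark CpG dinucleotides, and each set holds CpG-poor as well as CpG-rich promoters.
Lcn2 promoter, chr2:32387690-32387989, minus strand: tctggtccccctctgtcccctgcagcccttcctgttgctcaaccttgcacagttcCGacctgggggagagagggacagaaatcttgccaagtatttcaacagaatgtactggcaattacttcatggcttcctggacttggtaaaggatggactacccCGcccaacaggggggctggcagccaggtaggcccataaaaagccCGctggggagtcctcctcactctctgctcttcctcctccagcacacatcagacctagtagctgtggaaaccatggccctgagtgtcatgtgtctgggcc
Marco promoter, chr1:120504975-120505274, minus strand: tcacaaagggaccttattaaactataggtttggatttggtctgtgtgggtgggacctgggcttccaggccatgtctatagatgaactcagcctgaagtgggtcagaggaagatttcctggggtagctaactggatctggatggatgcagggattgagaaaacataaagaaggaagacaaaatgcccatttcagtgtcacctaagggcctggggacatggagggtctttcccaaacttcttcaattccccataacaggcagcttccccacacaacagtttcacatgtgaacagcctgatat
Sod2 promoter, chr17:13007589-13007888, plus strand: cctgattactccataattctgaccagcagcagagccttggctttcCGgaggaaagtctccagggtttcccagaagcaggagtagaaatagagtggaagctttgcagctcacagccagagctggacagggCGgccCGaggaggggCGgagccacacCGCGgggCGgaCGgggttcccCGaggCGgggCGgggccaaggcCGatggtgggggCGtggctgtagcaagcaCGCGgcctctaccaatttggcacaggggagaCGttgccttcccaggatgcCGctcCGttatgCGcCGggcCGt
Siglech promoter, chr7:55767934-55768233, plus strand: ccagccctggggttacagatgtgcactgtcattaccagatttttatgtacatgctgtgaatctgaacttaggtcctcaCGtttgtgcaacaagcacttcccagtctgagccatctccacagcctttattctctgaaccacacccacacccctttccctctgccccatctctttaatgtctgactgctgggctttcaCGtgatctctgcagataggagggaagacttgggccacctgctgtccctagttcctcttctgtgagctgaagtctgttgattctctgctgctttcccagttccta
Sstr2 promoter, chr11:113619077-113619376, plus strand: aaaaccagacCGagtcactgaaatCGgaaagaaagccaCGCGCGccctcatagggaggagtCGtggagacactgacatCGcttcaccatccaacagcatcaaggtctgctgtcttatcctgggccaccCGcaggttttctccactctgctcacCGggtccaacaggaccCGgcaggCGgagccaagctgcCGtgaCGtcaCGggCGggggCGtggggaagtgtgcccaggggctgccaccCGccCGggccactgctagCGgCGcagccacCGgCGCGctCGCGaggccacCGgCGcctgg
Cdk1 promoter, chr10:69352863-69353162, minus strand: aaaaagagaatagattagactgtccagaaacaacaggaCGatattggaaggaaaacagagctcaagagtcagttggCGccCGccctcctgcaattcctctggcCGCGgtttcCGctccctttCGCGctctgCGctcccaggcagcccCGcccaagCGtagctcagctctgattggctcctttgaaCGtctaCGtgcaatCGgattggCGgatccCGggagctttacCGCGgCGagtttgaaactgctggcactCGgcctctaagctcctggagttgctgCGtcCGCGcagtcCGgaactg

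The promoter of Lcn2 held 3 CpG, that of Marco 0 and that of Siglech 2, whereas those of Sod2, Cdk1 and Sstr2 held 21, 24 and 27. The promoters of most members were of the CpG-rich kind. Of 20063 distinct protein-coding promoters in the table, 10416 (51.9%) lay in a member, and these had a median of 22 CpG and 61.7% G and C. The 8162 promoters overlapped by no merged region had a median of 4 CpG and 49.0% G and C. A TATA box, searched as TATAAA on both strands, was found in 6.63% of promoters in members, in 21.5% of those in no region and in 12.7% of all promoters.

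Members that changed with PAM3 differed less from the rest of the members in base composition. Promoters in members that rose or fell with PAM3 (370 and 399 promoters) both had a median of 19 CpG, against 22 for the 7601 in members called in all 8 libraries that passed in neither direction. The 15 promoters in members with peaks only in PAM3 libraries had a median of 7 CpG and the 27 in members with peaks only without PAM3 had 20. The symmetric NF-κB motif (GGG, any 2 bases, then TTTCC), searched on both strands, was in 3.24% of promoters of rising members, 1.5% of those of falling members and 1.65% of all promoters. The Marco promoter holds it, and the other 5 sequences printed do not. The PU.1/ETS core GAGGAA was in 29.5%, 31.6% and 27.1%, and the AP-1 motif TGANTCA in 7.03%, 4.51% and 7.06%. These shares describe letters in a fixed window and carry no test.

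The deposited −log10 q of peaks moved with PAM3, whereas peak number and covered length overlapped between libraries with and without it. The lists held 47286 to 53181 peaks on chromosomes 1 to 19, covering 55.3 Mb (PAM3, mouse A) to 70.6 Mb (PAM3, mouse B). The median −log10 q of peaks in members, as the authors deposited it, was 5.65 to 6.85 in the 4 libraries with PAM3 and 7.06 to 9.44 in the 4 without, so the groups did not overlap. Lists hold no read counts, so read depth is unknown, and the part of these differences in the results was not tested. All 30 of the macrophage identity genes (Spi1, Csf1r, Lyz2 and others) had a member at an end, and 29 of their 39 members were called in all 8 libraries. Of markers of other cells, 7 of 14 neutrophil, 7 of 17 lymphocyte, 7 of 10 dendritic cell, 5 of 12 fibroblast and endothelial and 6 of 8 erythroid and megakaryocyte genes had one. None was found at Ly6g, Mpo, Cd3e, Pax5, Col1a2 or Cdh5. Gata1 and Alas2 do not lie on chromosomes 1 to 19 and could not be examined. Of 17 genes expected to be silent in macrophages 3 had one (Neurog2, Apoa2 and Sox10).

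Acetylation at gene ends was called more reproducibly than elsewhere. A region is present in a library when the library has at least 1 peak in it. Of the 13211 members, 8851 (67.0%) were present in all 8 libraries, compared with 29.0% of 29716 regions inside gene bodies and 33.0% of 20176 distal intergenic regions. In each library separately 88.9 ± 1.43% of members were present (SD, n = 8), against 66.9 ± 3.41% of intragenic and 70.3 ± 2.34% of distal regions. Members were higher in 8 of 8 libraries in both comparisons (two-sided exact sign-flip permutation test, p = 0.0078, the smallest possible, 0.0078 after adjustment over 6 tests). Presence also bears on membership, since a region merged from peaks of more libraries tends to be wider and so touches a window more easily. The test therefore does not tell location from width.

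**Figure D1:**
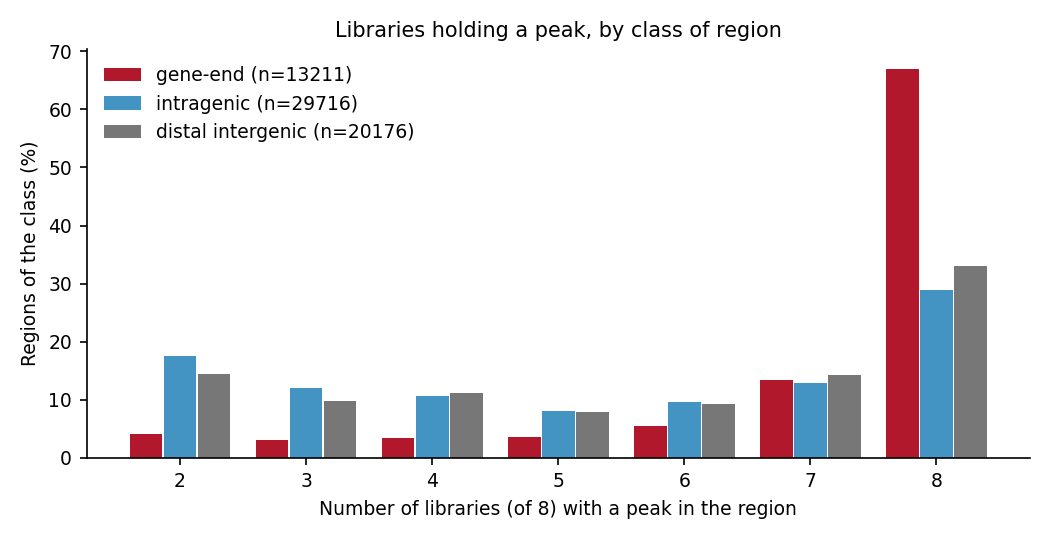
Percentage of regions (vertical axis) by the number of libraries with a peak (horizontal axis) for gene-end members, intragenic and distal intergenic regions. Most gene-end members (67.0%) were called in all 8 libraries, whereas the other classes spread over all numbers.

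Members were also longer, which is given as a description with no test, since a longer region touches a gene's window more easily and so becomes a member more easily. The median called length, the bp covered by a library's peaks in a region where it was present, was 1514 ± 56 bp in members, 1098 ± 62 bp in intragenic and 1099 ± 65 bp in distal regions (SD, n = 8 libraries). The authors' enrichment fold, taken at the highest peak of each region, had a median of 1.73 in members and 1.69 in both other classes (higher in 8 of 8 libraries, two-sided exact sign-flip permutation test, p = 0.0078). This last difference was small and turned round when only peaks with a −log10 q of at least 5 were kept, at −0.0880 against intragenic and −0.0875 against distal regions. Merged members were 1830 bp wide in the median, with 90% of them between 708 and 3926 bp.

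The reproducibility belonged to regions that cover the gene's end coordinate itself, of which there were 10748 (81.4% of members). Of these, 74.1% were called in all 8 libraries. Members that lay up to 250, over 250 and up to 500, or over 500 and up to 1000 bp from the nearest coordinate were at 37.2%, 32.6% and 37.2%. Regions just outside the rule, over 1000 and up to 1500 bp away, were at 33.9%, close to the 32.0% of regions over 5000 and up to 10000 bp away. Regions that cover a coordinate were wider as well (median 1899 bp, against 1364 to 1428 bp for the other distances within the rule), and a wider region covers a point more easily. At the other threshold of the rule, the 536 members with peaks of exactly 2 libraries had a median width of 760 bp, and the 966 gene-end regions with a peak of 1 library, which are no members, 426 bp.

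**Figure D2:**
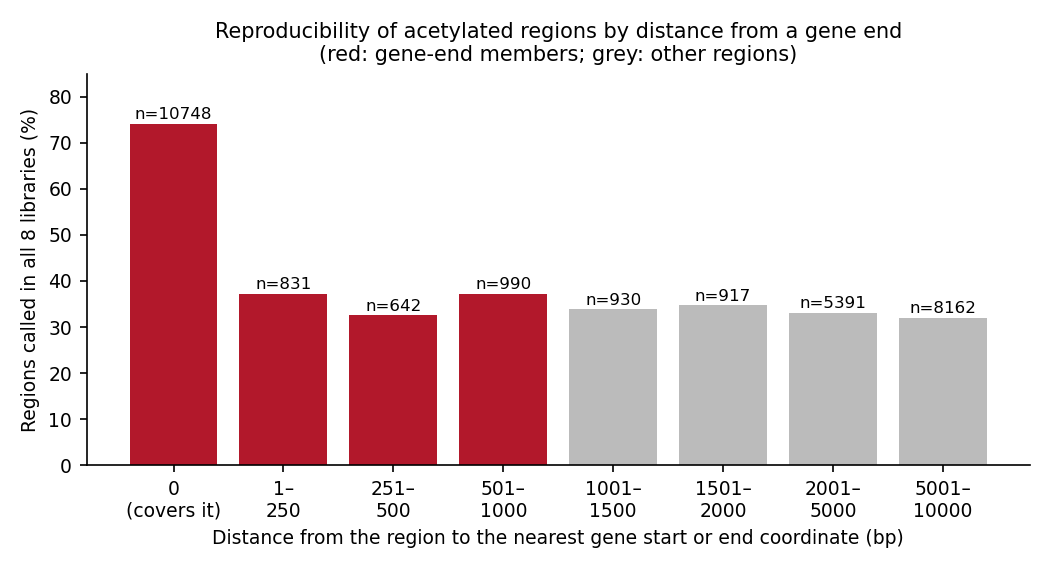
Percentage of regions called in all 8 libraries (vertical axis) by distance in bp from the nearest gene start or end coordinate (horizontal axis), with the number of regions above each bar. Regions covering the coordinate stand at 74.1%, and all other distances between 32.0% and 37.2%, inside as well as outside the 1 kb limit.

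Transcription starts and transcript ends behaved differently. Strand was known for 16457 of 20665 protein-coding genes. Of these genes 9795 (59.5%) had a member at the transcription start and 3007 (18.3%) at the transcript end. Of the 7702 members touching only starts, 74.5% were called in all 8 libraries, compared with 34.0% of the 1775 touching only transcript ends and 76.0% of the 840 touching both. Per library, 92.8 ± 1.54% of start members and 70.9 ± 2.80% of transcript-end members were present (SD, n = 8; higher in 8 of 8 libraries, two-sided exact sign-flip permutation test, p = 0.0078, a comparison chosen after the data were seen). The median width was 1859 bp at starts and 1558 bp at transcript ends. Regions holding the starts of 2 or more genes numbered 857, and 83.5% of them were called in all 8 libraries, against 73.4% of the 6845 holding 1 start. A member touched 1 gene in 10918 cases and 2 genes in 2198, so a region cannot always be given to a single gene.

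Across the 4 groups, fewer members were present with PAM3. The counts were 11885 (mouse A) and 12021 (mouse B) in untreated cells, 11748 and 11939 with 25HC, 11687 and 11478 with PAM3, and 11558 and 11670 with 25HC then PAM3. The 4 libraries with PAM3 all lay below the 4 without. With PAM3 11598 ± 98 members were present and without it 11898 ± 115 (SD, n = 4 each), a difference of −300 (two-sided exact permutation test, p = 0.0286, the smallest 4 against 4 can give, 0.114 after adjustment over 4 tests). Leaving out the members absent from exactly 1 library, an alternative chosen after the data were seen, the difference was −181 (two-sided exact permutation test, p = 0.0857). Intragenic regions went the other way, with 663 more present in PAM3 libraries (p = 0.429 in the same exact test), and distal regions were 249 fewer (p = 0.543).

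25HC left the number of members close to the controls, with 11729 ± 160 present with it and 11768 ± 237 without (SD, n = 4 each; two-sided exact permutation test, p = 0.771). The total length called in members was 17.4 to 19.6 Mb with PAM3 and 18.6 to 19.7 Mb without (two-sided exact permutation test, p = 0.571). With 25HC it was 18.6 to 19.5 Mb, and without it 17.4 to 19.7 Mb (two-sided exact permutation test, p = 1). Neither length differed by more than the spread between libraries.

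Pairs of libraries shared most members whatever the treatment. The share is the members present in both libraries as a percentage of those present in either. Pairs of the same group shared 87.8 to 90.3% of members, and pairs differing in PAM3 83.1 to 87.9%. Pairs that differed in 25HC shared 89.0 to 90.1% without PAM3 and 84.3 to 87.6% with it. The same pairs shared fewer intragenic regions, 68.2 to 73.2% within a group and 54.3 to 60.2% across PAM3.

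A missing peak is not a measurement of no acetylation. The lists lacked 1773 members in exactly 1 of the 8 libraries, most often PAM3 B (409 members) and 25HC then PAM3 B (338) and least often 25HC A (114). In the libraries that did list them these members had a median enrichment fold of 1.62 and a called length of 1393 bp, compared with 1.77 and 1602 bp for members called in all 8. Where a group is at 0, its called lengths are therefore given here without a fold, since the 500 bp added before taking logs sets the size of the log2 difference, and this holds for each such log2 difference printed among the additional observations. Both libraries of such a group also show no spread, so adjusted p-values of these members can be too small. In bulk chromatin, fewer cells with the mark and less of it per cell cannot be told apart.

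Called length was then compared region by region, with limma on log2(called bp + 500 bp) over all 63103 regions and Benjamini-Hochberg adjustment, and a member rose or fell where its adjusted p was under 0.05. PAM3 against untreated cells asks what the lipopeptide does to acetylation at gene ends. Of the members 283 rose (background over all regions 4.38%) and 312 fell (background 3.82%), together 4.50%, where the background for both directions was 8.2%. In cells given 25HC first, PAM3 against no PAM3 gave 396 rising (background 7.11%) and 363 falling (background 4.75%), together 5.75% with a background of 11.9%. Averaged over both pretreatments, 4 libraries against 4, 627 members rose (background 9.89%) and 652 fell (background 7.71%), together 9.68% with a background of 17.6%. In each of these comparisons the share of members called was below that of all regions. Members called in both PAM3 comparisons, which share no library, numbered 133 rising in both (1.01%, background 2.04%), 134 falling in both (1.01%, background 1.76%) and 5 with opposite signs (0.0378%, background 0.0761%).

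**Figure D3:**
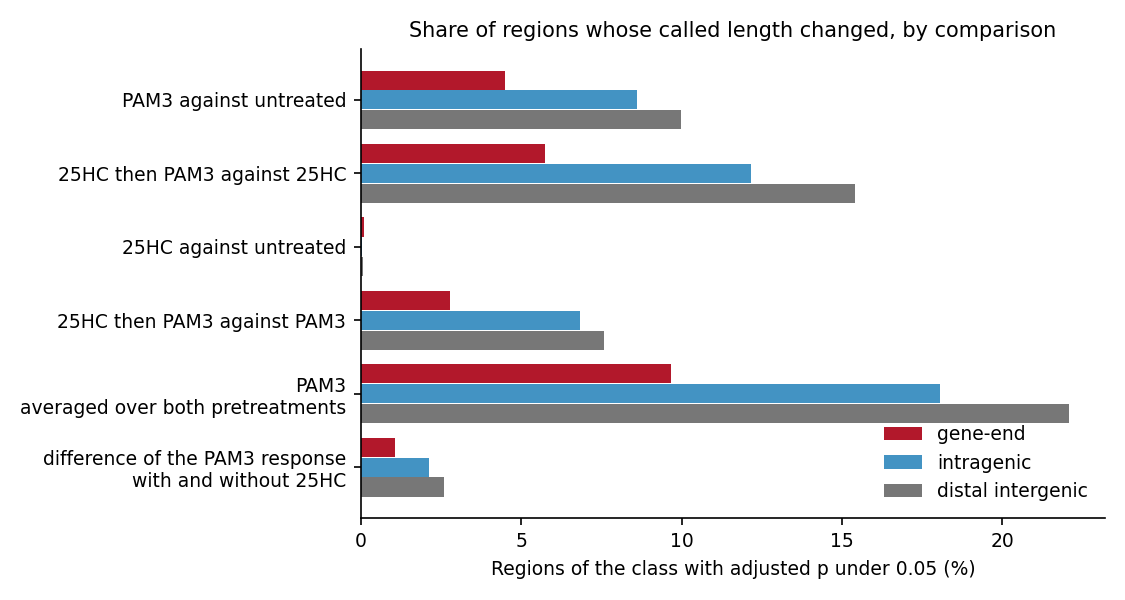
Percentage of regions with adjusted p under 0.05 (horizontal axis) in each of the 6 comparisons (vertical axis), for gene-end, intragenic and distal intergenic regions. Gene-end members had the smallest share in every comparison that contains PAM3, for example 9.68% against 18.1% and 22.1% in the average over both pretreatments.

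Starts changed less often than transcript ends, at 7.92% of start members and 17.4% of transcript-end members in the average over both pretreatments, a difference that was not tested. Members called in all 8 libraries supplied 662 of the 1279 calls of that average (7.48% of 8851), and the other calls include at least 1 library with no peak. When peaks with a −log10 q under 5 were removed, limma called 0 members in every comparison, with 1854 at an unadjusted p under 0.05 in the PAM3 average. Among genes named below, the sign of the PAM3 change then turned at Tnf, Tlr5, Plk1, Mylip, Ddit4, Nars, Shmt2 and C1qc. The balance of rising and falling calls turned with the library left out. For PAM3 against untreated it was 158 to 44 without untreated A, 276 to 78 without untreated B and 258 to 578 without PAM3 A. Without the subtraction of the library median it was 241 to 386 there, and 551 to 684 in the average over both pretreatments.

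Some members had peaks only in PAM3 libraries. There were 79 members with peaks in all 4 libraries with PAM3 and in none of the other 4 (0.598%, background 2.14%). Of these 21 touched only a start (0.273% of start members) and 35 only a transcript end (1.97% of transcript-end members). The start of Lcn2, the gene of the iron-scavenging protein lipocalin 2 (chr2:32386736-32389863), had 2714 and 3013 bp called with PAM3 (mice A and B) and 3081 and 2997 bp with 25HC then PAM3. The other 4 libraries had none, and the adjusted p of the PAM3 average was 0.00144. At Saa1, which encodes the acute-phase protein serum amyloid A (chr7:46743652-46749116), the lengths were 2713 and 5360 bp with PAM3 and 4332 and 4238 bp with 25HC then PAM3 (adjusted p = 0.00147). Camp, the precursor of the antimicrobial peptide cathelicidin, had 1518 and 1706 bp and then 1890 and 2133 bp at its start (adjusted p = 0.00150). Marco, a scavenger receptor for bacteria, had 1463 and 2344 bp and then 1756 and 1392 bp (adjusted p = 0.00192). These 4 members are given as examples of that pattern, so libraries with and without PAM3 could not overlap in them. Their adjusted p-values are no separate support for it.

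The same pattern was seen at other genes. Ms4a6d, of a family of membrane-spanning proteins, had 3091 to 4191 bp in the 4 PAM3 libraries at its start coordinate, Zfp811, a zinc finger gene, 2565 to 3025 bp at its start, and Sel1l, an adaptor of protein degradation at the endoplasmic reticulum, 1977 to 5467 bp at its transcript end. Tnni1, the slow skeletal troponin gene, had 2177 to 3367 bp at its transcript end. None of these 4 members had a peak in a library without PAM3. Transcript-end members can lie near another transcription unit or an enhancer, and the lists do not tell these apart.

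Among genes of NF-κB feedback and inflammatory effectors, 39 of 40 had a member at an end, 53 members in all. With PAM3 averaged over both pretreatments 16 of the 53 (30.2%) rose and 4 (7.55%) fell, where the background was 9.89% rising and 7.71% falling over all regions and 4.75% and 4.94% over all members. Their median log2 change was 0.15, against 0.00 over all members. The lists were chosen with earlier results of these data known, so such shares describe the lists and are no separate support. With the mouse as a block 15 rose and 4 fell (background for both directions 13.6%). With every library reduced to the same covered length 6 rose and 1 fell (background for both directions 8.29%). Without peaks of −log10 q under 5 no member was called at all. Leaving out 1 library gave 11 to 16 rising and 2 to 5 falling.

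Several of these genes already had an acetylated start that lengthened. Nfkbia encodes the inhibitor of NF-κB that the factor itself induces, and its region spans the whole gene (chr12:55488202-55493751). It had 2510 to 2864 bp called in the 4 libraries without PAM3, 3602 and 4671 bp with PAM3 and 5547 and 5370 bp with 25HC then PAM3, a log2 change of 0.72 (SE 0.06, adjusted p = 0.00224). Fpr2, a receptor for bacterial formyl peptides (chr17:17885324-17893847), measured 1648 ± 18 bp without PAM3 and 5331 ± 1286 bp with it (SD, n = 4 each; log2 change 1.44, SE 0.11, adjusted p = 0.00224). Sod2, the mitochondrial superoxide dismutase (chr17:13006980-13011550), measured 1833 ± 110 bp without PAM3 and 3665 ± 840 bp with it (SD, n = 4 each; log2 change 0.83, SE 0.11, adjusted p = 0.00782). For all 3 genes the 4 PAM3 libraries lay above the other 4. PAM3 A was the lowest PAM3 library in each, and it is also the library with the least covered length.

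Other effectors had no peak at their start in 2 or more of the libraries without PAM3. Acod1, which makes itaconate, had 0, 229, 0 and 762 bp without PAM3 and 3027 to 3337 bp with it (adjusted p = 0.00717). At Nos2, the inducible nitric oxide synthase, lengths were 390 and 375 bp with PAM3 and 1189 and 883 bp with 25HC then PAM3, and 0 in the rest (adjusted p = 0.00636). Peaks at Nos2 were thus confined to PAM3 libraries, so its adjusted p-value is no separate support for that pattern. Ptgs2, the inducible cyclooxygenase, had 1044 and 1121 bp and then 2576 and 3007 bp, and untreated B also had 1016 bp (adjusted p = 0.0265). The 4 falls were at 1 region each of Cd40, a costimulatory receptor, Icam1, an adhesion molecule, Zfp36, an mRNA-destabilising protein, and Saa3. Each of these genes also had a member that did not fall. Another region of Saa3 rose from 830 to 1355 bp without PAM3 to 2522 to 3554 bp with it. The Zfp36 region that fell had no peak in either PAM3 library and 1532 and 1437 bp with 25HC then PAM3. That range lies within that of the libraries without PAM3 (1156 to 1551 bp).

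**Figure D4:**
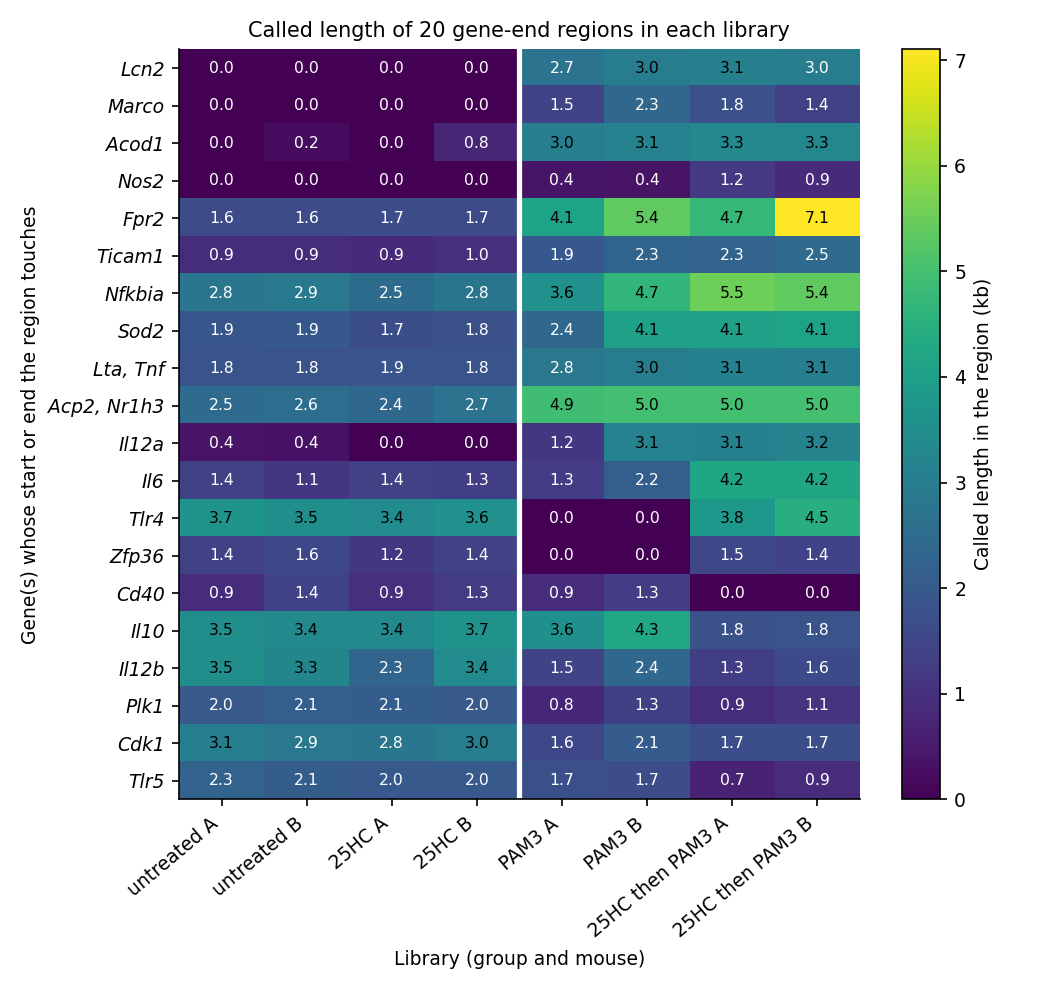
Called length in kb of 20 gene-end regions (rows, named by the genes they touch) in the 8 libraries (columns), libraries without PAM3 to the left of the white line. Lcn2 and Marco have peaks only to the right of it, Nfkbia and Fpr2 lengthen there, Cdk1 and Plk1 shorten, and Tlr4 is empty only in the 2 PAM3 libraries.

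For cytokines and chemokines, 5 of 35 members rose (14.3%) and 3 fell (8.57%) in the PAM3 average, with the backgrounds of 9.89% and 7.71% over all regions and 4.75% and 4.94% over all members as before. Their median log2 change was 0.27. The region over Tnf, the gene of tumour necrosis factor, and the end of its neighbour Lta (chr17:35200077-35203297) went from 1826 to 1863 bp in the 4 libraries without PAM3 to 2838 to 3111 bp in the 4 with it, a log2 change of 0.60 (SE 0.05, adjusted p = 0.0026). Il12a, a subunit gene of interleukin 12, had 380 and 356 bp in the untreated libraries, 0 with 25HC, 1156 and 3138 bp with PAM3 and 3129 and 3184 bp with 25HC then PAM3 (adjusted p = 0.0041). The start of Il6 (chr5:30012088-30016276) had 1130 to 1376 bp without PAM3, 1283 and 2153 bp with PAM3, and 4166 and 4164 bp with 25HC then PAM3. It rose in the average (log2 change 0.85, SE 0.10, adjusted p = 0.00654) and in 25HC then PAM3 against PAM3 (log2 change 1.07, adjusted p = 0.0158), while its PAM3 response did not pass for a difference between cells with and without 25HC. A region of Ccl4 and a region of Cxcl16 also rose, but not with the mouse as a block (adjusted p = 0.0568 and 0.0756). The falls were at Ccl17 and at 1 region each of Il12b and Il10, which also had a member that did not fall. One Il10 region, of the gene for an anti-inflammatory cytokine, had 3357 to 4255 bp in 6 libraries and 1771 and 1836 bp with 25HC then PAM3.

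Members at genes of Toll-like receptor sensing split evenly, with 3 of 25 rising and 3 falling (12% each, backgrounds 9.89% and 7.71% over all regions and 4.75% and 4.94% over all members). Their median log2 change was 0.05. Ticam1, the adaptor TRIF (chr17:56275362-56277839), measured 926 ± 48 bp without PAM3 and 2240 ± 218 bp with it at its start (SD, n = 4 each; log2 change 0.96, SE 0.06, adjusted p = 0.00156). One of the 2 start regions of Tlr2, a PAM3 receptor gene, went from 252 to 794 bp to 1332 to 2361 bp (adjusted p = 0.0122), and the start of Tlr1 rose as well. Tlr5, the flagellin receptor gene, had 1988 to 2258 bp without PAM3, 1744 and 1675 bp with PAM3 and 698 and 896 bp with 25HC then PAM3 (adjusted p = 0.00775). Irak4, a kinase downstream of the receptors, shares its start region with Pus7l, and the region measured 2520 ± 102 bp without PAM3 and 1529 ± 272 bp with it (SD, n = 4 each; adjusted p = 0.00816). The remaining fall, Tlr4, rests on the PAM3 group alone and is given with the comparisons of 25HC.

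Regions present only without PAM3 numbered 92 (0.696%, background 2.08%). Of these 40 touched only a start (0.519% of start members) and 35 only a transcript end (1.97% of transcript-end members). Siglech, a lectin gene of plasmacytoid dendritic cells (chr7:55766459-55769114), had 1969 and 2656 bp in the untreated libraries, 2062 and 1997 bp with 25HC and no peak in the 4 PAM3 libraries (adjusted p = 0.00158). Sstr2, a somatostatin receptor gene (chr11:113617224-113619880), had 2415 and 2037 bp and then 2132 and 1616 bp, and none with PAM3 (adjusted p = 0.00164). Chp2, a calcineurin-like calcium-binding protein gene, had 2346 to 3181 bp without PAM3 and Cxxc5, a CXXC zinc finger gene, 2076 to 2942 bp, again with no peak in PAM3 libraries. The transcript end of Clec9a, a lectin gene of dendritic cells, had 819 to 1238 bp without PAM3 and none with it (adjusted p = 0.00438), while its start region had 1094 to 1577 bp with PAM3 and did not pass. Apart from the start of Clec9a, these members are examples of that pattern, so libraries with and without PAM3 could not overlap in them. Their adjusted p-values are no separate support for it.

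Siglech and Clec9a are the 2 falling members among 10 members of dendritic cell markers, of which 1 rose (a region shared by Xcr1 and Fyco1). The backgrounds were 7.71% falling and 9.89% rising over all regions, and 4.94% and 4.75% over all members. With so few members, 1 or 2 calls cannot be told from these backgrounds. The summed length called in these 10 members was 12410 to 13741 bp with PAM3 and 15621 to 18321 bp without. This sum includes the 2 falling members, with means of 2171 and 944 bp without PAM3 and no peak with it. It is therefore no separate support for a fall, and the part of dendritic cells in the result was not tested. Zbtb46, Ccr7 and Cd209a had no member. Neutrophil markers gave 1 rise (Camp) and 1 fall (the end of Elane, shared with the start of Cfd) among 9 members, with the same backgrounds. Their summed length overlapped, at 7495 to 10916 bp with PAM3 and 8646 to 10603 bp without. Lymphocyte (8 members), fibroblast and endothelial (6), erythroid and megakaryocyte (6) and silent genes (4) gave no call in the PAM3 average.

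Cell cycle genes gave 4 falls (9.52%) and 2 rises (4.76%) among 42 members, against 7.71% falling and 9.89% rising over all regions and 4.94% and 4.75% over all members, and their median log2 change was −0.04. Cdk1, the mitotic kinase (chr10:69350280-69353459), had 2798 to 3062 bp without PAM3 and 1552 to 2055 bp with it at its start (log2 change −0.59, SE 0.06, adjusted p = 0.00292). Plk1, another mitotic kinase, measured 2052 ± 79 bp without PAM3 and 1040 ± 234 bp with it (SD, n = 4 each; log2 change −0.72, SE 0.10, adjusted p = 0.0080). For both genes the groups did not overlap. A region of Aurkb and a region of Kif11 fell too, but not with the mouse as a block (adjusted p = 0.0708 and 0.0561). The transcript end of Birc5 and a region of E2f1 rose.

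Of 28 members at genes of LXR targets and oxysterol handling 3 rose (10.7%, background 9.89% over all regions and 4.75% over all members) and 0 fell, with a median log2 change of 0.03. The region between Nr1h3, which encodes LXRα, and Acp2, a lysosomal phosphatase gene (chr2:91202298-91207342), had 2366 to 2708 bp without PAM3 and 4928 to 4991 bp with it (log2 change 0.88, SE 0.06, adjusted p = 0.00176). Its 4 PAM3 libraries were nearly equal in length. The start of Lpcat3, a phospholipid-remodelling enzyme gene, and Mylip, whose ubiquitin ligase controls the LDL receptor, rose by 0.37 and 0.42 on the log2 scale. Of 30 cholesterol synthesis members Fdps alone rose, from 1528 to 2055 bp to 2736 to 2883 bp (adjusted p = 0.0118). With 25HC against untreated cells no member of either list passed. The start of Abca1, the LXR-induced cholesterol exporter, had 1854 and 1722 bp untreated and 2410 and 1877 bp with 25HC.

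The remaining lists gave 1 to 3 calls each. Integrated stress response members rose in 3 of 28 cases (Ddit4, Shmt2 and Nars; 10.7%, background 9.89% over all regions and 4.75% over all members). In the other lists of this paragraph at most 4.55% rose and 5.71% fell. Interferon-stimulated genes gave 1 rise among 31 (Zbp1, adjusted p = 0.0599 with the mouse as a block), and antigen presentation 1 among 22 (a region of Cd74, 0.0600 with the block). Macrophage identity gave 1 rise (Itgam) and 2 falls (C1qc and Ctsb, 0.0790 and 0.0529 with the block) among 39. Ribosomal protein genes gave 2 falls among 35 (the start of Rplp0 and the region of Rpl10a), and housekeeping genes 1 rise (Tuba1b) and 1 fall (a region of Eef2) among 22. C1qc, a complement gene, had 3060 to 3550 bp in 6 libraries and 639 and 1393 bp with 25HC then PAM3.

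**Figure D5:**
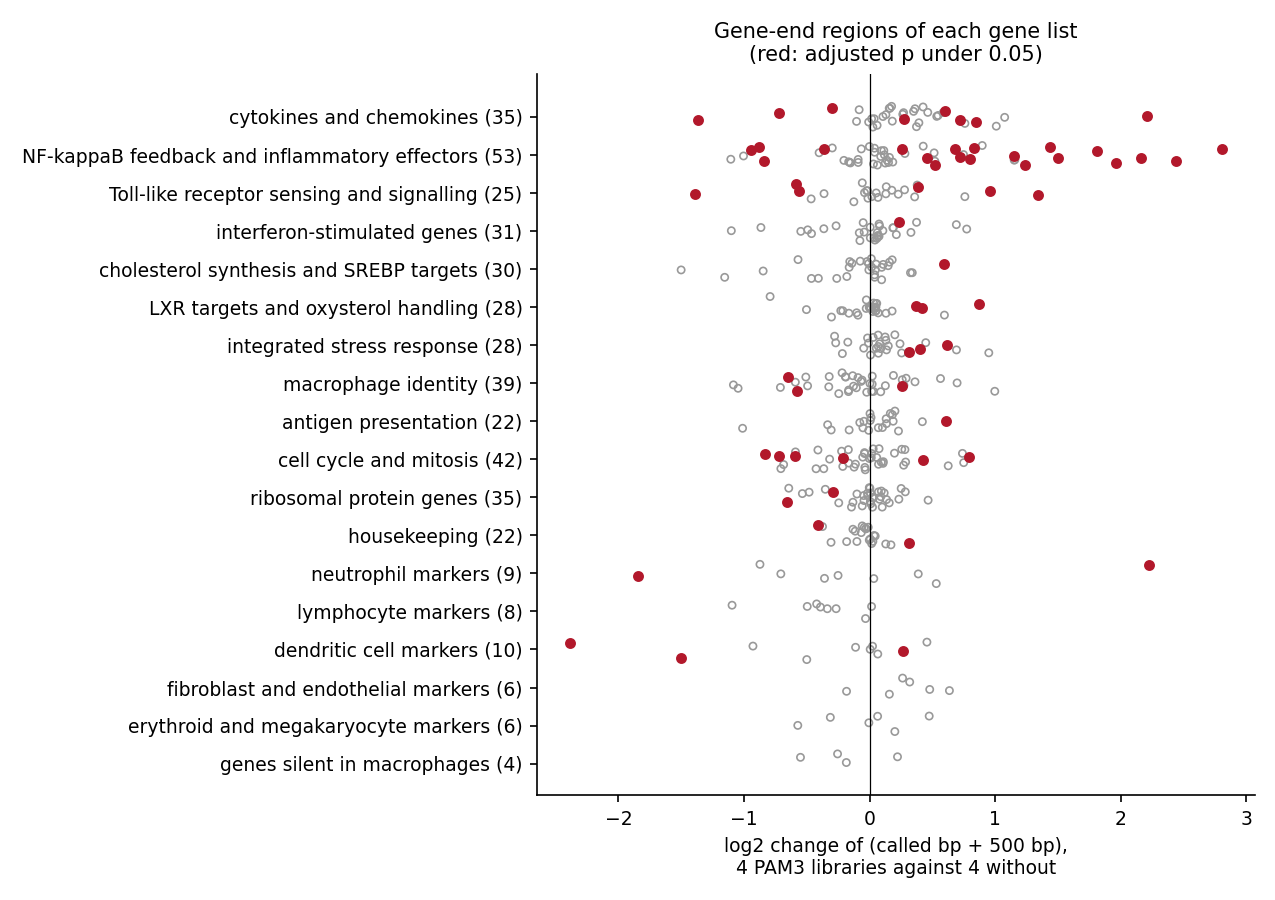
Log2 change of called length with PAM3, averaged over both pretreatments (horizontal axis), for each gene-end region of the 18 gene lists (vertical axis, with the number of regions). Filled red points passed adjusted p under 0.05, and the NF-κB list holds 16 of them to the right of zero and 4 to the left.

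25HC on its own changed very few members. Against untreated cells 5 rose and 6 fell (background 0.0285% in each direction), together 0.0833% with a background of 0.057%, and 0 passed with the mouse as a block (458 at an unadjusted p under 0.05). Each of the named ones is a region that 1 group lacks altogether. Pycard, which encodes the inflammasome adaptor ASC, had 1555 to 2281 bp in 6 libraries and none with 25HC, and the regions of Tada1, of Camkv with Traip and of Ap1g2 with Jph4 had the same shape. Lrch1, Rab29, Casc3, Lalba and the region of Ehbp1l1 with Fam89b lacked peaks in the 2 untreated libraries only. In 25HC then PAM3 cells the 4 of these regions without a peak under 25HC were again called, at 1550 to 2178 bp.

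Absence from 1 group was not particular to 25HC. Members present in the 6 libraries of all groups but 25HC numbered 32 (0.242%, background 0.383%), of all but untreated 28 (0.212%, background 0.33%), of all but PAM3 58 (0.439%, background 0.718%) and of all but 25HC then PAM3 103 (0.780%, background 1.58%). Median widths of these members were 1480 to 2002 bp. Peaks in both libraries of 1 group and in no other library were found in 56 members for untreated cells (0.424%, background 1.2%), 55 for PAM3 (0.416%, background 1.5%), 14 for 25HC (0.106%, background 0.35%) and 70 for 25HC then PAM3 (0.530%, background 2.96%). Those regions were shorter, with median widths of 616 to 1010 bp. Peaks in all 4 libraries with 25HC and in no other were found in 4 members (0.0303%, background 0.127%), among them the start of Itga2 and the transcript end of Gnaq. The reverse was found in 7 (0.0530%, background 0.181%), among them the starts of Lnx1 and Apol9b.

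Members called for 25HC were more numerous in cells that also had PAM3, and this difference in counts was not tested. Between 25HC then PAM3 and PAM3, 176 members rose (background 3.44%) and 190 fell (background 2.77%), together 2.77% with a background of 6.22%. Under the mouse block 101 rose and 109 fell (background for both directions 3.64%). The start of Tlr4, the receptor gene for lipopolysaccharide (chr4:66826249-66830704), measured 3669 and 3526 bp (untreated), 3423 and 3595 bp (25HC), 3792 and 4456 bp with 25HC then PAM3, and no peak in either PAM3 library (adjusted p = 0.00242, 0.0283 with the block). Its enrichment fold was 2.16 in the median of the libraries with a peak. Members called in all 8 had a median of 1.77 and a 90th percentile of 2.29. Those absent from exactly 1 library had 1.62 and 2.17, so a fold like that of Tlr4 also occurred among them. Bach1, a heme-responsive repressor gene, had 2275 to 2970 bp at its start in 6 libraries and none with 25HC then PAM3. The transcript ends of Tmem176b, a membrane protein gene, and Ccdc47, an endoplasmic reticulum protein gene, had the same shape, with 3250 to 3997 bp and 2153 to 4106 bp in the other 6. Ltbp3 at its start and Cdkn2a, a cell cycle inhibitor gene, at its transcript end had no peak with PAM3 and 2879 and 2902 bp, and 1944 and 2781 bp, with 25HC then PAM3.

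The PAM3 response itself differed between cells with and cells without 25HC at 140 members. It was higher with 25HC at 69 (background 1.16%) and lower at 71 (background 0.881%), together 1.06% with a background of 2.05%, and 0 passed with the mouse as a block (908 at an unadjusted p under 0.05). Only 29 of the 140 were called in all 8 libraries, so most of these calls include a library without a peak.

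The longest members kept peaks in all 8 libraries. The widest region, 12084 bp over Lyz2 and the end of Lyz1, the lysozyme genes, had 5492 to 10318 bp called. Clec4d, a C-type lectin gene, had 6865 to 9260 bp, Stab1, a scavenger receptor gene, 5434 to 9097 bp, Wdfy2 4461 to 6493 bp and Pik3cd, a leukocyte PI3 kinase gene, 3673 to 7858 bp. None of these 5 passed in any of the 6 comparisons. Ninj1, a gene of membrane rupture in dying cells, had 10991 and 6831 bp in the untreated libraries, 6500 and 7641 bp with 25HC, 2554 and 3970 bp with PAM3 and 5584 and 5051 bp with 25HC then PAM3, a fall in the PAM3 average that was lost with the mouse as a block (adjusted p = 0.0257 and 0.0521). Spi1, the macrophage master regulator PU.1, had 3527 to 6088 bp, Csf1r 3315 to 5367 bp at its start coordinate and Actb 3967 to 5837 bp, with no call in any comparison.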

How the data were processed

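Acetyl-H4 was measured by ChIP-seq in 8 libraries, 1 broad peak list each. Per the submitters' processing notes, GSNAP was the aligner, GRCm38 (mm10) the genome and MACS2 2.1.0 the peak caller. The sources used here name no control library, filter or calling threshold. Each deposited list gives the start and end of every peak, the authors' score, which was not used here, the authors' enrichment fold (a ratio to local background) and the authors' −log10 p and −log10 q. No counts are listed, so read depth is not known and intervals from counts could not be given.

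Overlapping peaks on chromosomes 1 to 19 were merged over all libraries. Regions were classed as gene-end (within 1 kb of a start or end coordinate of a protein-coding gene in the RefSeq table of GRCm38.p6), intragenic or distal. Strand came from the RefSeq promoter table, for 16457 of 20665 genes. Called length plus 500 bp was taken to log2, the median of regions called in all 8 libraries was subtracted, and limma 3.58.1 (R 4.3.3, trend and robust settings) fitted all 4 groups together with 4 residual degrees of freedom. Benjamini-Hochberg adjustment ran over all 63103 regions with peaks of 2 or more libraries. All 13211 members passed that filter by definition, and a region that reached 2 libraries through 1 group had to differ between groups. Values per library were compared by exact permutation tests in Python 3.11.15.

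The labels give libraries of the same letter to 1 mouse. Correlations between same-mouse libraries, after subtracting each group's mean, were −0.0111 to 0.0394, and the fit without the mouse block is reported. The named members were the largest rises and falls per comparison, members present only under 1 condition, the longest members, fixed genes and the members of smallest p in each of 18 lists. Some members that the rule names are not reported here. Further members of the lists were named after their values were seen. Members, lists and rules were chosen with earlier results of these data known. The limma step was tested on simulated data with a normal spread around each region's mean. No group without peaks was planted in them, so that test does not cover members that a group lacks. Alternatives tried were another pseudocount, no median subtraction, stricter peaks, equal covered length, a filter of 4 libraries, a mouse block, each library left out, a 500 bp window and 50% coverage, and, chosen after the data were seen, only regions called in all 8 libraries.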

Additional observations from a re-analysis of the deposited data

Results flagged for a closer look

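For 23 named members the PAM3 response differed between cells with and without 25HC (limma, adjusted p under 0.05 for the difference itself), and none of them passed with the mouse as a block, where the smallest adjusted p was 0.119. Values are log2 differences, response with 25HC minus response without. Where a group had no peak, the 500 bp added sets their size.

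The response was higher with 25HC at the transcript ends of Gimap6 (3.603), Cdkn2a (3.48), Lsm14b (3.09) and Slc6a12 (2.42), at the starts of Tlr4 (3.17), Ltbp3 (3.07), Tada1 (2.07) and Crybb1 (1.90), and at an end of Chd1 (2.22). It was also higher at the regions of Camkv with Traip (2.12), Ap1g2 with Jph4 (2.08) and Pycard (2.02). Tada1, Pycard and the 2 shared regions lacked a peak only in the 25HC libraries, and Tlr4 only in the PAM3 libraries.

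The response was lower with 25HC at the transcript ends of Tmem176b (−3.12), Krt77 (−3.01) and Ccdc47 (−2.84), and at the starts of Lalba (−2.77), Raver2 (−2.72), Lrch1 (−2.65), Rab29 (−2.55), Bach1 (−2.50), Casc3 (−1.94) and Lrrc14b (−1.53). The region of Ehbp1l1 with Fam89b was at −3.04. Tmem176b, Ccdc47 and Bach1 lacked a peak only with 25HC then PAM3, and Lrch1, Rab29, Casc3, Lalba and the region of Ehbp1l1 only in untreated cells. Slc6a12 had 2313 and 2293 bp with 25HC then PAM3 and no peak in the other 6 libraries, and Raver2 had 2219 and 3169 bp with PAM3 and none elsewhere. Slc6a12 and Raver2 passed the filter for peaks only through the group named here, so they had to differ between groups. Their adjusted p-values are therefore no separate support for a difference in the PAM3 response.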

How the results depend on the processing

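Depth is unknown, only 2 mice gave all libraries, and the peaks of PAM3 libraries had lower −log10 q. The presence and total length results kept their side of the threshold under each alternative run for them. For the comparisons with and without PAM3 or 25HC this was nearly fixed in advance and says little. The smallest p their exact permutation test can give, 0.0286, became 0.114 after adjustment over the 4 tests. The direction of the small 25HC differences (−39 members present and −0.0021 Mb called) was not kept when some libraries were left out. The enrichment fold of members turned below that of intragenic (−0.0880) and distal regions (−0.0875) when peaks of −log10 q under 5 were removed. The cause was not tested.

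Counts of members changed are given in this order: PAM3 against untreated, PAM3 in cells given 25HC, 25HC alone, 25HC in cells given PAM3, PAM3 averaged over both pretreatments, and the PAM3 response with 25HC against that without. They were 595, 759, 11, 366, 1279 and 140. The background, in percent of all regions called, was 8.20, 11.9, 0.057, 6.22, 17.6 and 2.05. Without peaks of −log10 q under 5 they were 0 in all 6 (1307, 1440, 938, 1190, 1854 and 1290 at an unadjusted p under 0.05). With the mouse as a replicate block they were 361, 504, 0, 210, 956 and 0 (458 and 908 at an unadjusted p under 0.05 where 0 passed). The background there was 4.91, 8.30, 0, 3.64, 13.6 and 0%. Of the 119 called results of named members 88 stayed called with the block. With covered lengths made equal between libraries they were 343, 368, 11, 238, 591 and 6 (background 4.27, 5.79, 0.0492, 4.15, 8.29 and 0.0323%). In regions called in all 8 libraries, chosen after the data were seen, they were 214, 312, 0, 80, 632 and 1, with fewer regions tested (260 at an unadjusted p under 0.05 for 25HC). The background among those regions was 3.23, 5.70, 0, 1.62, 10.7 and 0.0456%. With peaks of 4 or more libraries the fourth and sixth counts were 176 and 42 (background 2.23 and 0.417%). With a pseudocount of 100 bp the third and sixth were 93 and 331 (background 1.29 and 5.57%), and with no median subtraction 46 and 213 (background 0.602 and 3.48%). Leaving out 1 library gave 202 to 836, 333 to 989, 2 to 133, 201 to 593, 833 to 1526 and 0 to 317. The first count moved by over 1.5 times without untreated A (202) or B (354), the second without 25HC A (437), 25HC B (333) or 25HC then PAM3 B (419), the fourth without untreated A (221) or B (230), PAM3 A (593) or 25HC then PAM3 B (201), and the fifth without untreated A (833) or 25HC B (837). The third and sixth moved by as much whichever library was left out. The lone library of a group was assumed to vary like the others. Between 78 and 93 of the named calls were kept.

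Log2 changes that turned round without peaks of −log10 q under 5 were, for the difference of the PAM3 response, Lalba (1.95). In the PAM3 average they were Tnf with Lta (−0.267), Tlr5 (0.243), Mylip (−1.29), Ddit4 (−0.871), Nars (−0.233), Shmt2 (−0.382), C1qc (0.0442) and Plk1 (0.644). For 9 named results this setting left no peak in any library compared, and equal covered lengths did so for 1, so they have no value there.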
